A study of Mus musculus with 12 samples.

Results

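The genes described here are 10 genes of the checkpoint between cell survival, apoptosis and necroptosis: Fadd, Casp8, Cflar, Ripk1, Ripk3, Ripk2, Mlkl, Birc2, Birc3 and Xiap. They were chosen by name and not by a threshold on their values, although earlier results of these data were known. All 10 were among the 12850 genes listed, and all 10 were among the 11885 genes tested, which had 1 CPM (a count scaled for library depth) or more in 2 libraries or more. The RNA came from thioglycollate-elicited PECs, which gather in the peritoneal cavity in response to an irritant. Mice of strain C57BL/6 received 2 ml of 4% thioglycollate medium, and the cells were taken 3.5 days later. WT mice were compared with homozygous Zc3h12aS513A/S513A (S513A) mice, a knock-in made with CRISPR/Cas9 in which a serine of Regnase-1, the RNase encoded by Zc3h12a, is replaced by alanine. Cells of each genotype were left without LPS (0 hr) or received LPS, a bacterial outer membrane component that acts through TLR4, at 100 ng/ml for 4 or 8 hr. Each of the 6 groups had 2 libraries, 12 in all. The 2 libraries of a group are labelled as replicates without saying whether they came from separate mice, so p values measure the spread between these libraries, which may be technical. The knock-in changes a codon, so the level of Zc3h12a mRNA is no check of the labels.

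Death receptors, TLRs and nucleic acid sensors can assemble RIPK1, FADD and caspase-8 into a complex whose output depends on its other members. Caspase-8 homodimers start apoptosis, while heterodimers of caspase-8 with the long form of cFLIP (Cflar) keep the cell alive and cleave RIPK1 and RIPK3. When caspase-8 is blocked, RIPK3 phosphorylates MLKL, which then ruptures the plasma membrane. Upstream, cIAP1 (Birc2) and cIAP2 (Birc3) are ubiquitin ligases that keep RIPK1 in a survival complex, and XIAP inhibits caspases directly. In macrophages these steps bear on whether a cell survives bacterial products.

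Reads on listed genes numbered between 9525979 and 12439960 per library, and each of the 10 genes had at least 158 reads in every library. Within a group, the log2 CPM of 8353 genes with a mean log2 CPM of 3 or more differed between the 2 libraries with an SD from 0.16 (S513A at 0 hr and WT at 8 hr) to 0.40 (WT at 4 hr). All 7 macrophage markers searched (Adgre1, Csf1r, Cd68, Itgam, Lyz2, Mertk and Fcgr1) were listed, with a summed level of 16165 to 26353 CPM. The 3 listed of 7 neutrophil markers (S100a8, Csf3r and Mmp9) summed to between 154 and 173 CPM at 0 hr, between 299 and 381 CPM at 4 hr and between 490 and 600 CPM at 8 hr. S100a9, Ly6g, Cxcr2 and Retnlg, the other neutrophil markers searched, had no listed value. The sum of the 2 listed of 4 eosinophil markers moved the other way, from between 15.3 and 18.5 CPM at 0 hr to between 3.62 and 4.58 CPM at 8 hr. B cell markers summed to at most 8.87 CPM. Markers of resident peritoneal macrophages summed to between 15.4 and 22.6 CPM at 0 hr and between 18.5 and 33.9 CPM at 4 hr. At 8 hr their sum was between 23.2 and 47.7 CPM, above that of every library at 0 hr. Markers of dendritic cells, mast cells, mesothelial cells and T cells summed to at most 6.27 CPM each, and none of the 5 erythroid markers was listed. Between genotypes, none of the markers passed the test. Bulk RNA cannot tell fewer cells of a type from less RNA per cell, and the part of these marker changes in the results below was not tested.

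Of the 10 genes, 6 rose and 1 fell at 4 hr of LPS against 0 hr, and 5 rose and 1 fell at 8 hr, in the mean of both genotypes. Cflar rose the most at 4 hr and Mlkl at 8 hr, Ripk2, Birc3 and Birc2 rose as well, Ripk3 fell, Casp8 rose slightly at 4 hr, and Ripk1, Fadd and Xiap did not pass the test. Changes with LPS were common among all genes tested: 29.1% rose and 26.7% fell at 4 hr, 55.8% in all, and 24.5% rose and 21.6% fell at 8 hr, 46.1% in all. The median log2 fold change of the 10 genes was 0.53 at 4 hr and 0.43 at 8 hr, beside 0.02 and -0.00 over all genes tested. Between 4 and 8 hr, 1 of the 10 rose and 2 fell, where 12.8% of all genes rose and 12.8% fell, 25.6% in all. Without averaging, 6 of 10 passed the test at 4 hr in WT (41.3% of all genes) and 6 of 10 in S513A (43.2%). At 8 hr, 6 of 10 passed in WT (34.3%) and 6 of 10 in S513A (39.9%), and between 4 and 8 hr 3 of 10 passed in WT (14.2%) and 2 of 10 in S513A (18.3%). The 4 libraries of a time point lay wholly on one side of the 4 at 0 hr for 6 of the 10 genes at 4 hr, which 49.1% of all genes did, and for 6 of 10 at 8 hr, which 43.7% did. Between 4 and 8 hr this was so for 4 of 10 (23.6% of all genes).

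**Figure D1:**
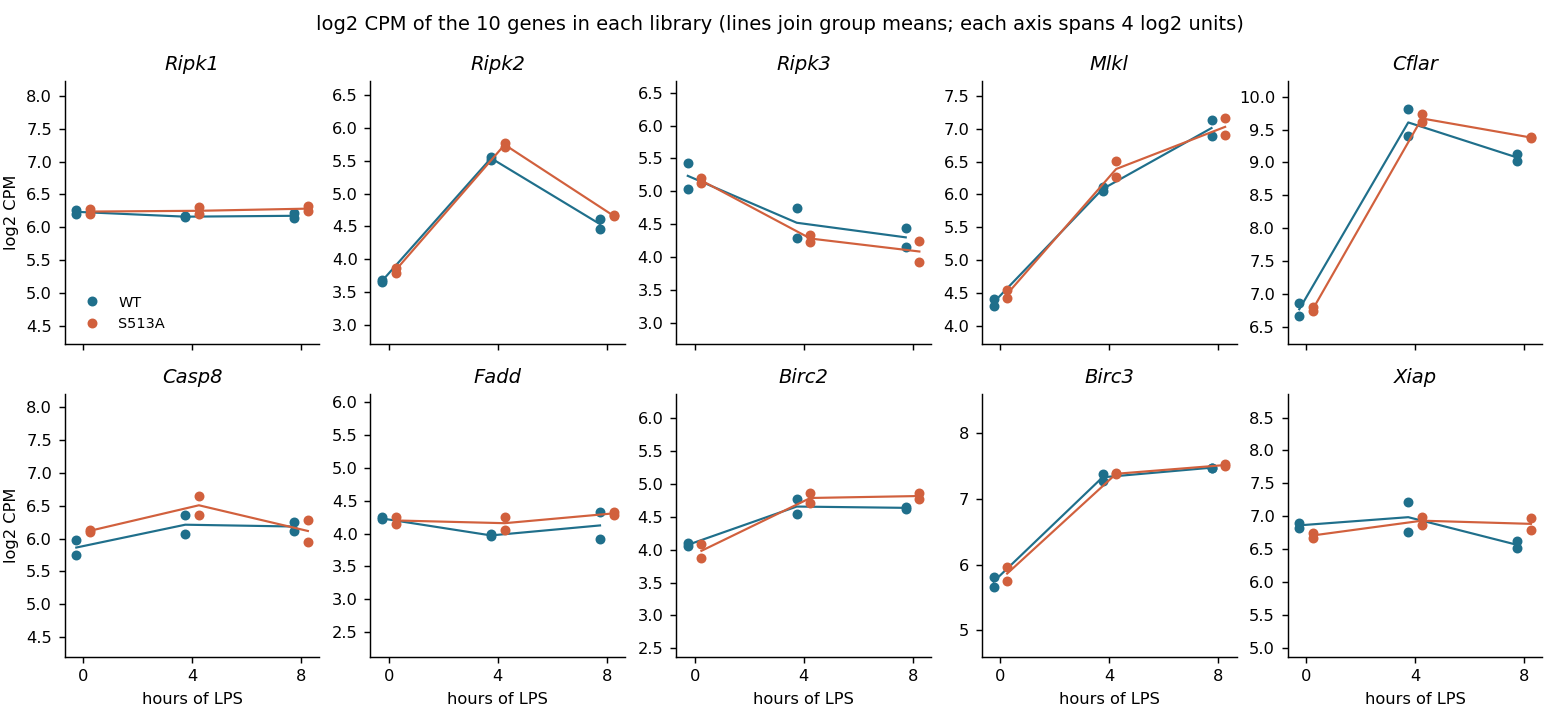
The log2 CPM of each of the 10 genes (vertical axis) is plotted against hours of LPS (horizontal axis) in each of the 12 libraries, with lines joining the means of the 2 libraries of a group and the genotypes shifted sideways for visibility. Every axis spans the same log2 distance, so the flat line of Ripk1 and the steep rises of Cflar and Mlkl can be compared directly.

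The starts of 4 of these genes are shown because they cover the 3 kinds of behavior: Cflar and Mlkl rose, Ripk3 fell and Ripk1 did not pass the test. Each run is a RefSeq promoter window on GRCm38.p6, from 250 bases before the start of a transcript to 50 bases from it, read 5′ to 3′ on the gene's strand, with matches to the searched motifs in capitals.
Cflar, chr1:58711241-58711540, forward strand: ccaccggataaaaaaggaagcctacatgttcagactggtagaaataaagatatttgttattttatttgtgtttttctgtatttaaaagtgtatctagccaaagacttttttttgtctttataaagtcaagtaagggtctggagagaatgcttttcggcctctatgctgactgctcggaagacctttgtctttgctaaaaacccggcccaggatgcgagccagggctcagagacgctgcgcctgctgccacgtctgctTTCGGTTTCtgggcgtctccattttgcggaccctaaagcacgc
Mlkl, chr8:111338156-111338455, reverse strand: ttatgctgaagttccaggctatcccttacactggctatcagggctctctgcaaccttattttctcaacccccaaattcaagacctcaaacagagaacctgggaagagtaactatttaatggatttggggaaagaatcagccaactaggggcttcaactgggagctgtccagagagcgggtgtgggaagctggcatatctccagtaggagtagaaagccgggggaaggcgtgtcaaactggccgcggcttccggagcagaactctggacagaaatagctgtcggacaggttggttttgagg
Ripk3, chr14:55788808-55789107, reverse strand: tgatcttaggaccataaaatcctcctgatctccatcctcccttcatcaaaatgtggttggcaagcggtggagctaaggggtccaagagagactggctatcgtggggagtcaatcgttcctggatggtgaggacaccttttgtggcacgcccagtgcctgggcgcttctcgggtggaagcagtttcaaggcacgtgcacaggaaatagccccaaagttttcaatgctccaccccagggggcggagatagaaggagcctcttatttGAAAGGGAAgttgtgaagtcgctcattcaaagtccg
Ripk1, chr13:34002624-34002923, forward strand, the second of its promoters: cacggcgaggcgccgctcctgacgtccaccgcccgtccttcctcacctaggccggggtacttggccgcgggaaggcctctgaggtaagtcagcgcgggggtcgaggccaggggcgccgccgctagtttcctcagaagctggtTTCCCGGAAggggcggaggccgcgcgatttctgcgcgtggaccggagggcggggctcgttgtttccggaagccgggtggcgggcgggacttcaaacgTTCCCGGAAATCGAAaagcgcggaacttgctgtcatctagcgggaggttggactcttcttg
The letters searched on both strands were TTCNNTTTC, the core of the interferon-stimulated response element (ISRE), TTCNNNGAA, the gamma-activated site (GAS) bound by STAT dimers, TGANTCA, the AP-1 site, and the consensus NF-kappaB site. Counting the first transcribed base as 0, the ISRE core stood at 7 to 15 in Cflar, on the opposite strand at 14 to 22 in Ripk3, at -60 to -52 in a promoter of Xiap and on the opposite strand at -5 to 3 in the Ripk1 window above. In Ripk1 that match overlapped a GAS match at -11 to -3, and another GAS match stood at -108 to -100. The ISRE core was thus in 4 of the 13 promoter windows of 9 genes (Ripk2 was not matched), beside 8.56% of 32851 RefSeq promoter windows of the same length. A GAS match was in 1 of the 13 (8.30% of all windows), an NF-kappaB match in 1 of the 13 (8.46%), at 22 to 31 in the same window of Xiap, and an AP-1 match in none (7.81%). The 4 genes with an ISRE core included a gene that rose, a gene that fell and 2 that did not pass the test. The windows of Mlkl and Birc3 held none of the 4 motifs. Neither did the other window of Ripk1, chr13:34002113-34002412, so the Ripk1 window shown is the one with matches.

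Cflar encodes cFLIP, whose long form is a catalytically dead relative of caspase-8 that restrains it. The values are per gene, so the forms of cFLIP were not told apart. On chromosome 1, Cflar lies at 58711508 to 58758884 on the forward strand of GRCm38. In WT, its log2 CPM was 6.67 and 6.86 before LPS, 9.41 and 9.81 after 4 hr, and 9.02 and 9.13 after 8 hr. S513A cells had 6.74 and 6.79 before LPS, 9.73 and 9.61 after 4 hr, and 9.39 and 9.37 after 8 hr. All LPS libraries were far above all libraries at 0 hr, and the libraries at 8 hr were below those at 4 hr in both genotypes. The log2 fold change at 4 hr was 2.87 (95% confidence interval 2.66 to 3.09), which is 7.33-fold (limma adjusted p = 1.77e-09), and 96.6% of all genes tested changed by less in either direction. At 8 hr it was 2.46 (2.25 to 2.68), or 5.50-fold (limma adjusted p = 8.03e-09). From 4 to 8 hr Cflar fell by 0.41 on the log2 scale (limma adjusted p = 0.0104), a call that quantile normalization ended (-0.30, limma adjusted p = 0.0525). In WT alone this fall was -0.53 (limma adjusted p = 0.0273), and it no longer passed without WT 4 hr replicate 2 (-0.33), WT 8 hr replicate 1 (-0.48) or WT 8 hr replicate 2 (-0.59). The WT call was also lost with only the libraries compared (limma adjusted p = 0.150), a prior without a trend (limma adjusted p = 0.0522) and quantile normalization (-0.47, limma adjusted p = 0.0557). In S513A alone the change from 4 to 8 hr was -0.29 and did not pass (limma adjusted p = 0.155), and whether it differed from that in WT was not tested.

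Casp8 encodes caspase-8, the initiator protease of death receptor apoptosis and the partner that cFLIP restrains. It is the next coding gene to Cflar on chromosome 1, at 58795374 to 58847503 and on the same strand, with 36489 bases between them. Its log2 CPM in WT was 5.74 and 5.98 before LPS, 6.36 and 6.06 after 4 hr, and 6.11 and 6.26 after 8 hr. In S513A it was 6.13 and 6.10 before LPS, 6.36 and 6.66 after 4 hr, and 5.95 and 6.28 after 8 hr. With both genotypes together, these levels overlapped between 0 hr and each LPS time point. In S513A alone the libraries at 8 hr lay on both sides of those at 0 hr. The log2 fold change at 4 hr was 0.37 (0.12 to 0.62), or 1.29-fold (limma adjusted p = 0.0160). That call was lost under quantile normalization (0.18, limma adjusted p = 0.174), without S513A 4 hr replicate 2 (0.29, limma adjusted p = 0.0649) and without WT 0 hr replicate 1 (0.31, limma adjusted p = 0.0681). In WT alone the change at 4 hr was 0.35 and did not pass (limma adjusted p = 0.104). In S513A alone it was 0.39 and did not pass either (limma adjusted p = 0.0702). In the mean of both genotypes the log2 fold change at 8 hr was 0.16 (-0.09 to 0.41) and did not pass. Within each library, Cflar minus Casp8 on the log2 CPM scale lay between 0.61 and 0.92 at 0 hr, between 2.95 and 3.75 at 4 hr and between 2.87 and 3.44 at 8 hr. Over the 4 libraries of a time point, the mean ratio of Cflar to Casp8 reads was thus 5.68-fold its 0 hr value at 4 hr. At 8 hr it was 4.93-fold. By genotype, the mean difference at 0, 4 and 8 hr was 0.90, 3.40 and 2.89 in WT and 0.65, 3.16 and 3.26 in S513A. Whether the genotypes differed in this ratio was not tested.

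Fadd, on the reverse strand of chromosome 7 from 144577318 to 144582463, encodes the adaptor that carries caspase-8 to death receptors. It had the fewest reads of the adaptor and protease genes, 159 to 266 per library. In WT its log2 CPM was 4.21 and 4.25 before LPS, 3.96 and 3.99 after 4 hr, and 3.92 and 4.33 after 8 hr. For S513A these were 4.15 and 4.25, then 4.06 and 4.26, then 4.29 and 4.33. The time points overlapped, and the log2 fold change was -0.15 (-0.38 to 0.08) at 4 hr and 0.00 (-0.23 to 0.23) at 8 hr, neither past the test. Its exons share 239 bases, 6.12% of them, with Faddos on the opposite strand, and reads of the 2 cannot be told apart since mapping took no account of strand.

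Ripk1 encodes the kinase and scaffold at the center of the complex, and its mRNA was among the steadiest measured. The gene lies on the forward strand of chromosome 13 from 34002363 to 34037147. Its log2 CPM in WT was 6.21 and 6.26 before LPS, 6.15 and 6.17 after 4 hr, and 6.22 and 6.13 after 8 hr. The S513A values were 6.21 and 6.27, then 6.20 and 6.30, then 6.32 and 6.25. The 12 libraries spanned 0.18 log2 units with an SD of 0.058, and of the 8353 genes with a mean log2 CPM of 3 or more only 6 had a lower SD. The log2 fold change was -0.03 (-0.18 to 0.12) at 4 hr and -0.01 (-0.16 to 0.14) at 8 hr, on 679 to 1060 reads per library. Under quantile normalization the difference at 4 hr was -0.24 and passed the test (limma adjusted p = 0.0143), so that its steadiness held on the deposited scaling and not on that one. Of its exon bases, 2.89% are shared with Serpinb6a on the opposite strand and 6.12% with the pseudogene Gm17084.

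Ripk3, the kinase that activates MLKL, fell. In WT its log2 CPM was 5.44 and 5.03 before LPS, 4.75 and 4.29 after 4 hr, and 4.45 and 4.15 after 8 hr. S513A libraries had 5.20 and 5.13 before LPS, 4.22 and 4.34 after 4 hr, and 3.92 and 4.25 after 8 hr. The 4 libraries at each LPS time point were below the 4 at 0 hr, although the WT libraries of a group lay up to 0.45 apart. Its log2 level at 4 hr fell by 0.80 (-1.10 to -0.50), a 1.74-fold decrease (limma adjusted p = 5.24e-04), and by 1.01 at 8 hr (-1.31 to -0.71), a 2.01-fold decrease (limma adjusted p = 1.27e-04). From 4 to 8 hr the log2 fold change was -0.21 (-0.51 to 0.09) and did not pass. In WT alone the fall at 4 hr was -0.71 (limma adjusted p = 0.0130), and it no longer passed without WT 0 hr replicate 1 (-0.51) or without WT 4 hr replicate 2 (-0.49). Ripk3 is a short gene on chromosome 14, from 55784995 to 55788865 on the reverse strand.

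Mlkl, which encodes the pseudokinase that ruptures the membrane in necroptosis, moved opposite to Ripk3. It lies on the reverse strand of chromosome 8 from 111311797 to 111338177. In WT its log2 CPM was 4.41 and 4.30 before LPS, 6.06 and 6.11 after 4 hr, and 6.89 and 7.13 after 8 hr. S513A cells had 4.42 and 4.55 before LPS, 6.26 and 6.52 after 4 hr, and 6.90 and 7.16 after 8 hr. The 3 time points did not overlap, and Mlkl was the only one of the 10 genes that passed the test upward both from 0 to 4 hr and from 4 to 8 hr. Its log2 fold change was 1.82 at 4 hr, or 3.52-fold (3.04-fold to 4.07-fold, limma adjusted p = 5.30e-08), and 2.60 at 8 hr, or 6.07-fold (5.24-fold to 7.02-fold, limma adjusted p = 4.75e-09). From 4 to 8 hr it rose by 0.79 (limma adjusted p = 2.29e-04). In S513A alone that second rise was 0.64 (limma adjusted p = 0.0101), and it did not pass without S513A 4 hr replicate 1 (0.51, limma adjusted p = 0.0543) or with only the libraries compared in the model (0.64, limma adjusted p = 0.0732). Within a library, Mlkl minus Ripk3 on the log2 CPM scale went from between -1.03 and -0.58 at 0 hr to between 1.31 and 2.17 at 4 hr and between 2.45 and 2.98 at 8 hr. The ratio of Mlkl to Ripk3 reads was 6.12-fold its 0 hr value at 4 hr and 12.2-fold at 8 hr.

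Ripk2 encodes the kinase that carries NOD1 and NOD2 signals to NF-kappaB and shares its kinase fold, not a necroptotic role, with RIPK1 and RIPK3. Its place is the reverse strand of chromosome 4 from 16122733 to 16163647. Its log2 CPM in WT was 3.65 and 3.69 before LPS, 5.56 and 5.52 after 4 hr, and 4.46 and 4.61 after 8 hr. The S513A libraries stood at 3.80 and 3.87 before LPS, 5.71 and 5.78 after 4 hr, and 4.65 and 4.67 after 8 hr. The 3 time points did not overlap, with 8 hr between the other two. Its log2 fold change was 1.89 (1.72 to 2.06) at 4 hr, or 3.71-fold (limma adjusted p = 6.08e-09), and 0.85 (0.68 to 1.01) at 8 hr, or 1.80-fold (limma adjusted p = 4.72e-06). From 4 to 8 hr it fell by 1.04 on the log2 scale (limma adjusted p = 1.29e-05), and ranked 261 of the 11885 genes tested, counted from the largest fall.

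**Figure D2:**
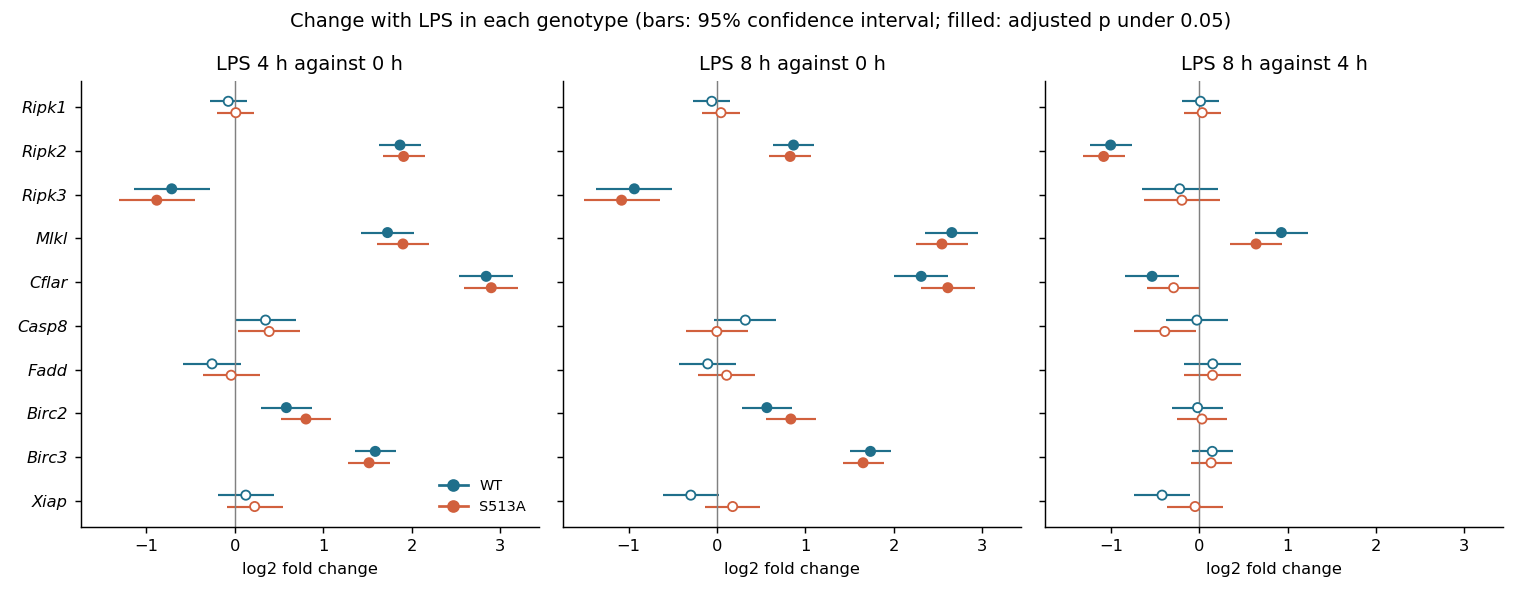
The log2 fold change with LPS (horizontal axis) of each of the 10 genes (vertical axis) is plotted for WT and S513A, with 95% confidence intervals from limma as bars and filled points where the adjusted p is under 0.05. The intervals of the 2 genotypes overlap for every gene and interval, Cflar, Mlkl, Ripk2 and Birc3 lie far right of 0 at 4 hr, and Ripk3 lies left of it.

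**Figure D3:**
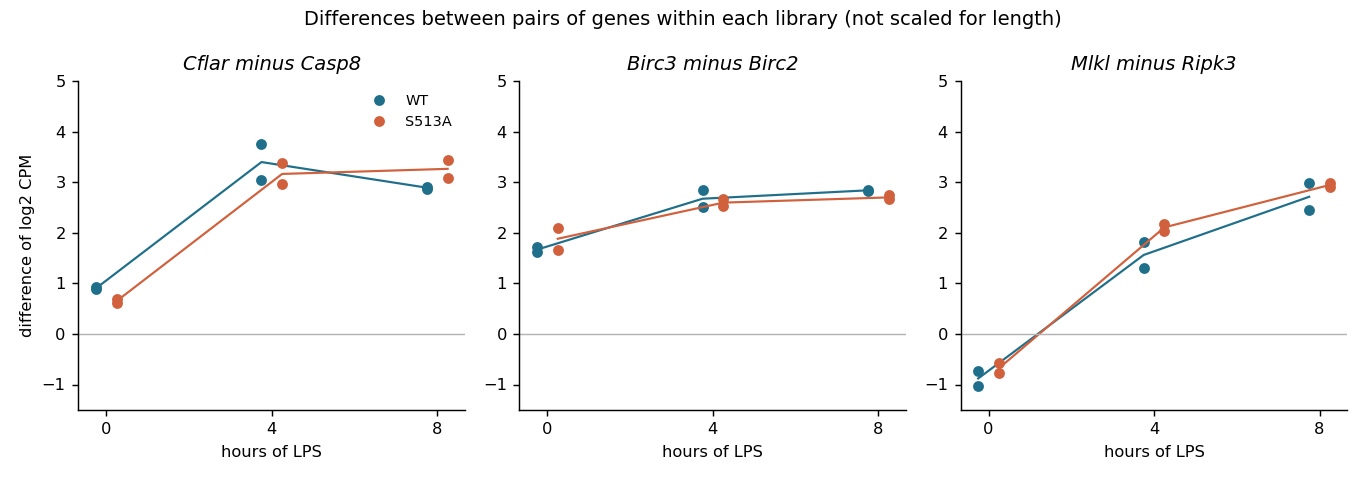
For 3 pairs of genes, the difference of their log2 CPM within each library (vertical axis, not scaled for gene length) is plotted against hours of LPS (horizontal axis), with lines joining group means. Cflar pulls away from Casp8 by 4 hr and Birc3 from Birc2 by a smaller distance, while Mlkl minus Ripk3 is below 0 in all libraries at 0 hr and above 0 in all at 4 and 8 hr.

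Birc2 and Birc3, which encode cIAP1 and cIAP2, are neighbors on the reverse strand of chromosome 9. Birc2 lies at 7818227 to 7837064 and Birc3 at 7848699 to 7873186, with 11634 bases and no annotated gene between them. Both rose, Birc3 by more. In WT, the log2 CPM of Birc3 was 5.82 and 5.67 before LPS, 7.38 and 7.28 after 4 hr, and 7.48 and 7.47 after 8 hr. In S513A, Birc3 had 5.76 and 5.97, then 7.38 and 7.39, then 7.53 and 7.50. The libraries at 8 hr were the closest together of any time point for this gene, between 7.47 and 7.53 in both genotypes. Birc3 changed by 1.55 (1.39 to 1.72) at 4 hr on the log2 scale, or 2.94-fold (limma adjusted p = 2.55e-08), and by 1.69 (1.53 to 1.86) at 8 hr, or 3.24-fold (limma adjusted p = 1.77e-08). Birc2 libraries had 4.10 and 4.05 (WT) and 4.09 and 3.87 (S513A) at 0 hr, 4.54 and 4.77 (WT) and 4.86 and 4.72 (S513A) at 4 hr, and 4.65 and 4.62 (WT) and 4.87 and 4.77 (S513A) at 8 hr. All LPS libraries were above all libraries at 0 hr, and the LPS time points overlapped. Its log2 fold change was 0.69 (0.49 to 0.90) at 4 hr, or 1.62-fold (limma adjusted p = 7.34e-05), and 0.70 (0.50 to 0.90) at 8 hr (limma adjusted p = 9.07e-05). The ratio of Birc3 to Birc2 reads was 1.82-fold its 0 hr value at 4 hr and 1.99-fold at 8 hr.

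Xiap, on the forward strand of chromosome X from 42059679 to 42109656, encodes the IAP that binds and inhibits caspases. In WT its log2 CPM was 6.82 and 6.90 before LPS, 6.76 and 7.21 after 4 hr, and 6.62 and 6.51 after 8 hr. In S513A it was 6.74 and 6.67 before LPS, 6.99 and 6.87 after 4 hr, and 6.97 and 6.79 after 8 hr. Both WT libraries at 8 hr were below both at 0 hr, while both S513A libraries at 8 hr were above both of theirs. At 8 hr it had changed by -0.30 (-0.61 to 0.02) in WT and 0.18 (-0.14 to 0.49) in S513A, neither past the test. The difference between them, tested as an interaction, was 0.47 (0.03 to 0.92), with an unadjusted p of 0.0393 and a limma adjusted p of 0.234. In the mean of both genotypes Xiap changed by 0.17 (-0.05 to 0.40) at 4 hr and -0.06 (-0.28 to 0.16) at 8 hr. The WT libraries at 4 hr lay 0.45 apart, and without WT 4 hr replicate 1 the mean change at 4 hr was 0.29 and passed the test (limma adjusted p = 0.00954).

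Between S513A and WT, none of the 10 genes passed the test at 0, 4 or 8 hr or in the mean over the time points. Of all genes tested, 0.0337% passed before LPS, 0.0168% after 4 hr, 0.0337% after 8 hr and 0.0673% in the mean. At an unadjusted p under 0.05 there were 0, 1, 2 and 1 of the 10 genes in these comparisons, and limma with voom weights also called 0 of 10 in each. Mlkl at 4 hr was 0.31 higher in S513A (0.01 to 0.60, limma adjusted p = 0.622). At 8 hr, Cflar was 0.30 higher (0.00 to 0.61, limma adjusted p = 0.398) and Xiap 0.32 higher (0.00 to 0.64, limma adjusted p = 0.396). Ripk2 was higher in both S513A libraries than in both WT libraries at each time point, with a mean difference of 0.17 (0.03 to 0.30, unadjusted p = 0.0221 in limma, limma adjusted p = 0.672). Libraries of the genotypes did not overlap for 4 of the 10 genes at 0 hr (3 higher and 1 lower in S513A), for 4 at 4 hr and for 6 at 8 hr (all higher in S513A). Over all genes tested, 57.5%, 28.2% and 53.6% did not overlap at these time points. The 95% confidence intervals reached from -0.50 to 0.60 at 0 hr, from -0.67 to 0.65 at 4 hr and from -0.64 to 0.64 at 8 hr over the 10 genes, and differences of that size are not excluded by a test that did not pass.

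The response to LPS was compared between genotypes with an interaction term at 4 and 8 hr, and 0 of the 10 genes passed at either time. Over all genes tested limma called 0 (0%) at 4 hr and 0 (0%) at 8 hr, where 144 and 2405 genes had an unadjusted p under 0.05. Of the 10 genes, 0 had such a p at 4 hr and 1, Xiap, at 8 hr, and limma with voom weights called 0 as well. Without S513A 8 hr replicate 2, 651 of all genes passed at 8 hr, with none of the 10 among them. The largest difference in response at 4 hr was that of Birc2, 0.22 (-0.18 to 0.62). The response of Casp8 at 8 hr was 0.32 in WT and -0.00 in S513A, a difference of -0.32 (-0.82 to 0.17, limma adjusted p = 0.395). For Cflar, the response at 8 hr was 2.31 in WT and 2.61 in S513A, and their difference was 0.30 (-0.13 to 0.73, limma adjusted p = 0.364).

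**Figure D4:**
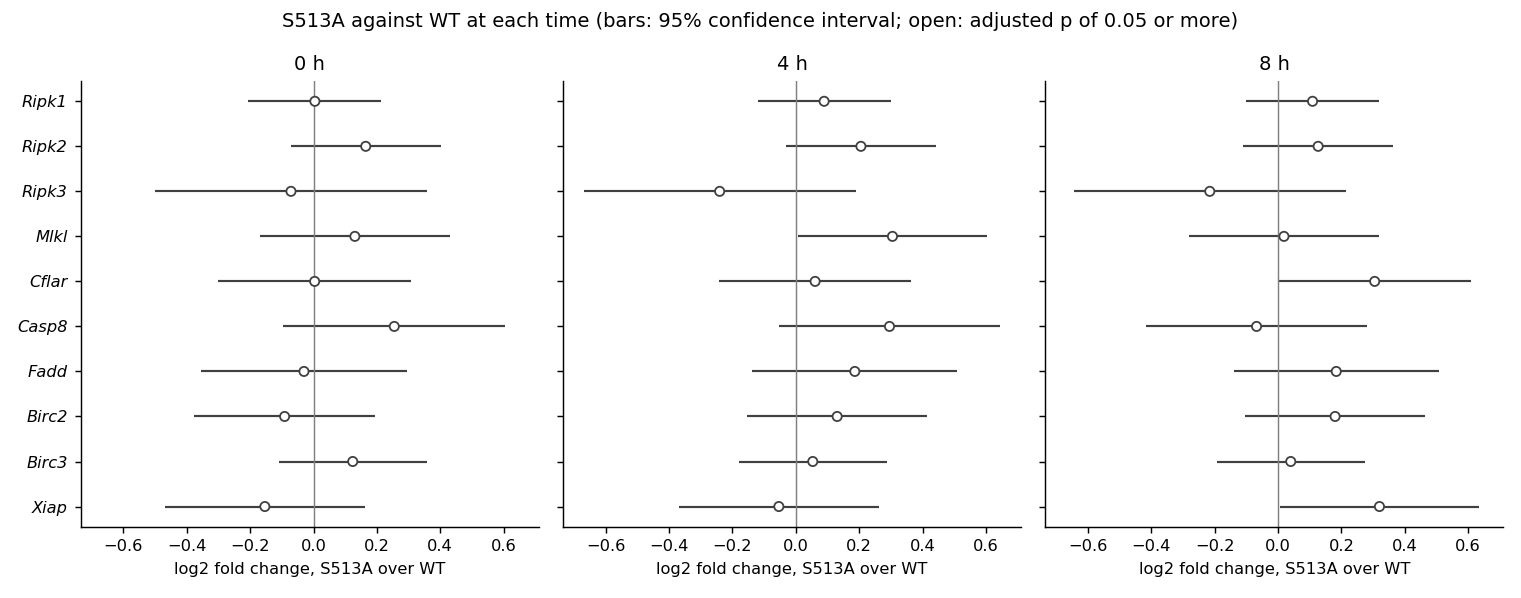
Differences of S513A over WT as log2 fold changes (horizontal axis) are plotted for the 10 genes (vertical axis) at 0, 4 and 8 hr, with 95% confidence intervals from limma as bars. All points are open, since no adjusted p is under 0.05, and all lie between -0.24 and 0.32.

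Levels of different genes were compared as CPM per kb of exon, with the union of all annotated exons as the length and the 4 libraries of both genotypes at a time point. At 0 hr Casp8 had the highest mean, at 22.1 ± 2.6 CPM per kb (SD, n = 4), and Ripk3 followed at 16.1 ± 2.0. Their ranges overlapped, at 18.5 to 24.3 for Casp8 and 14.3 to 18.9 for Ripk3. Xiap (11.7 ± 0.79) and Birc3 (11.2 ± 1.0) came next and did not differ beyond their spread, nor did Mlkl (9.31 ± 0.66), Ripk1 (9.05 ± 0.22) and Cflar (8.60 ± 0.49). Lowest were Ripk2 (4.80 ± 0.34), Fadd (4.76 ± 0.15) and Birc2 (3.57 ± 0.25), and the former 2 overlapped. At 4 hr Cflar was highest at 63.3 ± 7.5 CPM per kb, above Mlkl (33.0 ± 4.9), Birc3 (32.7 ± 1.2) and Casp8 (28.7 ± 4.8), which overlapped each other. At 8 hr the order was Mlkl (56.6 ± 5.6), Cflar (47.6 ± 5.9), Birc3 (36.1 ± 0.64) and Casp8 (24.6 ± 2.6), and the ranges of Mlkl and Cflar overlapped. Ripk3 went from the 2nd place at 0 hr to the 8th at 8 hr (8.04 ± 1.2). The order depended on the length used. On the longest transcript Cflar, which has 13 annotated transcripts, was at 16.6 CPM per kb at 0 hr, in the 4th place, and at 91.7 CPM per kb at 8 hr, in the first. Birc3 was then in the 2nd place at 0 hr (19.2 CPM per kb), with a range that overlapped that of Ripk3 (18.8 CPM per kb). Both ranges also overlapped that of Casp8, still the highest mean (20.7 to 27.1 CPM per kb). At 4 hr Birc3 (53.4 to 57.6 CPM per kb) lay on that length wholly above Mlkl (33.2 to 45.7 CPM per kb), and at 8 hr Cflar (78.8 to 102.1 CPM per kb) wholly above Mlkl (59.3 to 71.3 CPM per kb).

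Likeness of pattern was described by Pearson's r of log2 CPM over the 12 libraries, which share 3 time points, so that genes that follow LPS in the same way score high. The gene most like Cflar was Parp14 (r = 0.999), the one most like Mlkl was Irf7 (r = 0.998), the one most like Birc3 was Tarm1 (r = 0.999), and the one most like Ripk2 was Lancl2 (r = 0.998). For the other moving genes these were Mfsd7a for Birc2 (r = 0.986) and Aes for Ripk3 (r = 0.970). Casp8 was most like Ginm1 (r = 0.965) and Xiap most like Rc3h2 (r = 0.964), while for Fadd (Mllt3, r = 0.844) and Ripk1 (Gm14288, r = 0.791) no gene came as close. Gm14288 had a log2 CPM between -2.18 and 0.43, around the level of 3 reads, which lies between -2.04 and -1.30 depending on the library.

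Around the 10 genes, 61 others of the same pathway in 7 lists were examined, of which 58 were tested. At 4 hr 37 rose, 5 fell and 16 did not pass, with a median log2 fold change of 0.50, and at 8 hr 38 rose and 4 fell, with a median of 0.49 (all genes tested had 0.02 and -0.00). Of all genes tested, 29.1% rose and 26.7% fell at 4 hr, and 24.5% rose and 21.6% fell at 8 hr. From 4 to 8 hr 10 rose and 14 fell, where 12.8% of all genes rose and 12.8% fell. Between genotypes 0 of 58 passed at any time point or in the mean, and at most 0.0673% of all genes did. The genes of these lists named here passed the limma test at 4 hr. Among ligands, receptors and adaptors 10 of 12 rose at 4 hr and none fell. Tnf, the ligand of TNFR1, went from between 4.88 and 5.61 log2 CPM at 0 hr to between 11.07 and 11.45 at 4 hr, a change of 6.12 on the log2 scale. Tnfsf10, which encodes TRAIL, changed by 4.81 and Zbp1, the nucleic acid sensor that can recruit RIPK3, by 3.37 at 4 hr and 4.43 at 8 hr. The libraries of Zbp1 lay between 8.59 and 8.97 log2 CPM at 8 hr, all above those at 4 hr (7.50 to 8.00), as those of Mlkl did.

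The counts for single lists at 4 hr stand beside 55.8% of all genes that passed at that time. Of 9 ubiquitin ligases and deubiquitinases 5 passed at 4 hr, near the share of all genes, and all 5 rose. From 4 to 8 hr 4 of the 9 fell. Peli1, a ligase reported to act on RIPK1 and RIPK3, changed by 3.13, Tnip1, a ubiquitin-binding partner of A20, by 2.49, and Tnfaip3, which encodes A20, by 2.18 at 4 hr. Of 10 genes for kinases that act on RIPK1 and their partners 8 rose and 1 fell at 4 hr, with Mapkapk2, which encodes MK2, at 2.68, Ikbke at 1.57 and Tab2 at 1.34. Of 9 genes for executioner caspases, the apoptosome and IAP antagonists, 3 rose and 2 fell at 4 hr, a share near that of all genes, and 6 rose and 2 fell at 8 hr. Xaf1, an antagonist of XIAP, rose by 3.60, while Casp9, the initiator caspase of the apoptosome, fell by 0.95. Among the other BIR-domain genes 1 of 5 rose and 2 fell at 4 hr, again near the share of all genes, and 1 rose and 1 fell at 8 hr. Naip1 fell by 1.83 and Naip2, another sensor of the NLRC4 inflammasome, rose by 0.48. These are close paralogs, and reads that match both make their values uncertain. Of 5 genes in the pyroptosis list 3 passed at 4 hr, also near the share of all genes. All 3 rose, with Casp4 at 2.38, Casp1 at 1.17 and Gsdmd, the pore former, at 0.90. Of 8 genes for MLKL cofactors 7 rose at 4 hr, by less than Mlkl itself, with Hsp90aa1 at 0.86, Ppm1b at 0.77 and Pgam5 at 0.55.

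**Figure D5:**
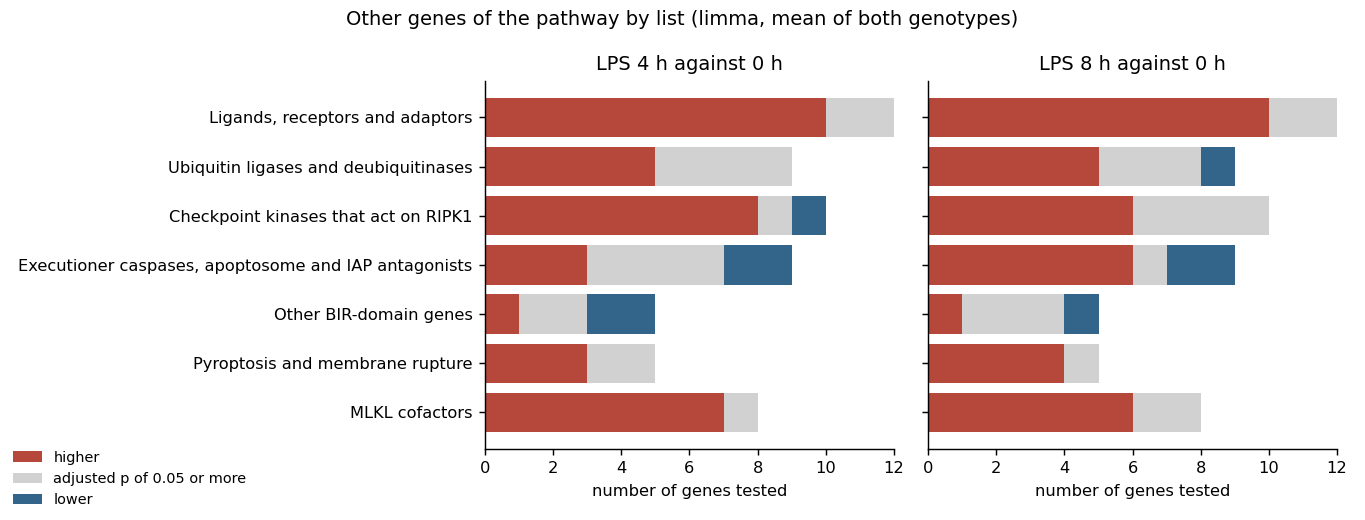
For each of the 7 lists (vertical axis), the number of genes tested (horizontal axis) is split into those that were higher, those with an adjusted p of 0.05 or more and those that were lower after LPS, in the mean of both genotypes. Ligands, receptors and adaptors rose in 10 of 12 cases at both times, and the fallen genes at 4 hr lie in the lists of kinases, of caspases and of BIR-domain genes.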

How the data were processed

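RNA from 12 PEC libraries was sequenced with paired-end reads. According to the methods, the authors mapped the reads to mm10 with HISAT2 (unstranded) and counted them with featureCounts 1.6.3. The authors deposited log2 CPM values, the log2 of the reads plus 0.5 over an effective library size, from which whole reads were recovered for all genes (largest departure 0.00144 read). The annotation and the program behind these log2 values are not given in the sources used here. No column was left unmapped. The log2 values went into limma 3.58.1 (R 4.3.3) with a mean per group, 6 residual degrees of freedom, a prior that followed mean expression, two-sided tests, Benjamini-Hochberg adjustment over the 11885 genes that reached 1 CPM in 2 or more libraries, and a threshold of 0.05. Such intervals reflect spread between libraries, and fold changes of low genes are understated by the 0.5 read. The model was tested on simulated data. Positions came from the GRCm38 GENCODE annotation, promoter windows from RefSeq. Named in the text are the 10 genes, up to 3 genes per pathway list with the largest change at 4 hr among those past the threshold whose libraries at 4 and 0 hr did not overlap, and the gene most like each of the 10. A gene that this rule names is not reported here. Overlapping genes, neighbors and marker genes are named besides. The 10 genes, lists and tests were chosen with earlier results of these data known. Alternatives were other filters, pseudocounts, scalings, priors, weights, a replicate block, models of fewer libraries, each library left out, and another length. Tables were made with Python 3.11.15 and pandas 2.3.3, figures with matplotlib 3.10.9.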

Additional observations from a re-analysis of the deposited data

How the results depend on the processing

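Of the values of the 10 genes past the threshold, none changed direction under any alternative: 489 of 495 stayed past it across the alternatives that kept all libraries or only those compared, and 532 of 540 when a library was left out. The 6 and 8 that did not concern Casp8 at 4 hr, Cflar and Mlkl from 4 to 8 hr and Ripk3 at 4 hr in WT, whose values stand beside the results. A further 16 values came to pass the threshold under some alternative, for Casp8, Ripk1 and Xiap. Ripk1 at 4 hr and Xiap at 8 hr in WT (-0.52) did so under quantile normalization, Xiap and Casp8 at 8 hr in WT (-0.30 and 0.32) and Casp8 at 4 hr in S513A (0.39) with only the libraries compared in the model, and the rest when a library was left out. The cause was not tested. The number of the 10 genes that passed was 6 to 8 at 4 hr and 6 at 8 hr in the mean of both genotypes when a library was left out, and 1 or 2 from 4 to 8 hr in S513A. With only the libraries compared it was 1 from 4 to 8 hr in S513A. Between genotypes and in the interactions it was 0 under every alternative run.

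Counts over all genes moved more. With only the libraries compared in the model, 596 genes passed from 4 to 8 hr in S513A and 656 in WT, and between genotypes 693 at 0 hr, 0 at 4 hr and 1 at 8 hr. A prior without a trend gave 0, 0 and, in the mean over the time points, 5 genes at 0 hr, 4 hr and in that mean. The stricter filter gave 2, 0 and 3 for the same comparisons, and voom weights gave 0 at 0 hr, 1 at 4 hr and 1 at 8 hr. A further pseudocount of 1 CPM gave 0 at 0 hr, and correlated libraries gave 4 in the mean. Leaving out a library gave 3629 to 5687 genes at 4 hr and 2994 to 5425 at 8 hr in S513A, 3432 to 4951 and 2489 to 4824 in WT, 5869 to 6777 and 4556 to 5987 in the mean of both genotypes, and from 4 to 8 hr 665 to 3144 in S513A, 554 to 2847 in WT and 2021 to 3403 in the mean. Between genotypes it gave 0 to 5 at 0 hr, 0 to 2 at 4 hr, 0 to 6 at 8 hr and 4 to 12 in the mean, and in the interaction at 8 hr 0 to 651.

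Replicate numbers are shared between groups, but the differences between replicates 1 and 2 correlated between -0.75 and 0.76 across pairs of groups, so the numbers were not taken as pairing. Within WT these correlations ran from -0.36 to 0.15. Within S513A the value was 0.76 between 4 and 8 hr, and -0.03 and -0.12 between 0 hr and those times. With the number as a replicate block, 2 genes passed between genotypes at 0 hr and 1 at 4 hr, and no call of the 10 genes changed. Scalings moved the median of all genes by at most 0.09 on the log2 scale. With 2 libraries per group, a standard error of 0.09 to 0.19 for the 10 genes within a time point limits what differences between genotypes could be detected.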
